A study of Mus musculus with 12 samples.

Results

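The transcripts of the mouse mitochondrial genome are the subject here. The members were taken by position alone, as every row of the deposited gene tables placed on chromosome MT, which gave 37 of 52858 genes: 13 mRNA genes, 2 rRNA genes and 22 tRNA genes. RNA was sequenced from heart tissue of C57BL/6J mice and of Slit2-Tg mice, which carry a full-length human Slit2 cDNA driven by a CMV promoter and were first made in oocytes of a C57 and CBA cross. Slit2 is a secreted guidance protein that binds Robo receptors. All hearts were perfused outside the body on a Langendorff apparatus. C57-IR and Slit2-IR hearts went through no-flow global ischemia and then reperfusion (IR), and C57-non-IR and Slit2-non-IR hearts were perfused without a break. Each of the 4 groups had 3 libraries, described by the submitters as independent samples. Genotype came from the sample labels, and IR or non-IR was read from the letters of the labels against the group names of the study. The mouse Slit2 gene had 0.169 to 0.222 FPKM (fragments per kilobase of gene length scaled to library depth, as the authors deposited) in non-IR libraries and 0.0847 to 0.813 FPKM in IR libraries. That row counts the human transgene only as far as its reads align to the mouse gene, so it is no check of the genotype.

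The mitochondrial genome is a small circle whose genes sit almost end to end. Both strands are copied into long precursor RNAs by the polymerase POLRMT, and the tRNAs that lie between the other genes are cut out by enzymes at their ends, which releases the mRNAs and rRNAs. The mRNAs encode core subunits of the respiratory chain and of the ATP synthase, the rRNAs build the mitochondrial ribosome and the tRNAs read its codons. Cardiac muscle draws most of its ATP from this system, which needs a steady supply of oxygen.

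The sequences of the tRNA genes that carry the main results are shown as the genome annotation gives them, to make plain how short these features are. The first 4 are the genes whose level passed the test after IR, and the last pair differed between libraries of different replicate number. Sequences and positions are those of GENCODE M21 on GRCm38, whose coordinates for these genes equal those of the files. The anticodon is in capitals. mt-Th (histidine) lies at MT:11546-11612 on the + strand, mt-Tg (glycine) at MT:9391-9458 on the + strand, mt-Tn (asparagine) at MT:5089-5159 on the - strand, mt-Ty (tyrosine) at MT:5260-5326 on the - strand, mt-Tl2 (a leucine tRNA) at MT:11671-11741 on the + strand and mt-Tp (proline) at MT:15356-15422 on the - strand.
mt-Th: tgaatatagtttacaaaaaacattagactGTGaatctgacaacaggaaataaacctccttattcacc
mt-Tg: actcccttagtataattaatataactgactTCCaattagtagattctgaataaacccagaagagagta
mt-Tn: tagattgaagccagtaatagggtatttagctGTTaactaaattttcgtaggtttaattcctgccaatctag
mt-Ty: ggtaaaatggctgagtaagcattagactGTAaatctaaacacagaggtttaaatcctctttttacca
mt-Tl2: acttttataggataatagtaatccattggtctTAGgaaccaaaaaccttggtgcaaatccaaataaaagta
mt-Tp: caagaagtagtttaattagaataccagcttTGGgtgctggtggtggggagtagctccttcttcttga

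The 22 tRNA genes were 59 to 75 bases long. A read counted on one of them can come from a precursor, from a partly cut transcript or from the mature tRNA, and these sources cannot be told apart in gene totals. By the methods of the study, the paired-end reads were longer than any of these genes. A read of full length therefore runs past such a gene, and how it was counted is not given. The values below are thus no measure of mature tRNA.

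Mitochondrial genes took 19.7% to 26.0% of the 16601154 to 24841291 reads on genes per library. Nearly all of these reads lay on mRNA genes. The mRNA share was 23.6%, 23% and 24.3% in the 3 C57-non-IR libraries (replicates 1, 2 and 3) and 25.3%, 24.9% and 24.1% in C57-IR. It was 21.6%, 22.3% and 21.3% in Slit2-non-IR and 19.1%, 23.1% and 20.7% in Slit2-IR. Only Slit2-IR replicate 2, at 23.1%, lay within the range of the C57BL/6J libraries. The rRNA share averaged 0.918% ± 0.134 (SD, n = 3) in C57-non-IR, 0.939% ± 0.349 in C57-IR, 0.768% ± 0.166 in Slit2-non-IR and 0.626% ± 0.0823 in Slit2-IR. The tRNA share was the smallest, at 0.0766% ± 0.00563, 0.0616% ± 0.0154, 0.0651% ± 0.0126 and 0.0460% ± 0.00975 in the same order. Set against the mRNA reads of the same library, there were 3.24 ± 0.201 tRNA reads per 1000 mRNA reads in C57-non-IR, 2.49 ± 0.649 in C57-IR, 3.00 ± 0.562 in Slit2-non-IR and 2.17 ± 0.261 in Slit2-IR. These sums over the members are given without a test.

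**Figure D1:**
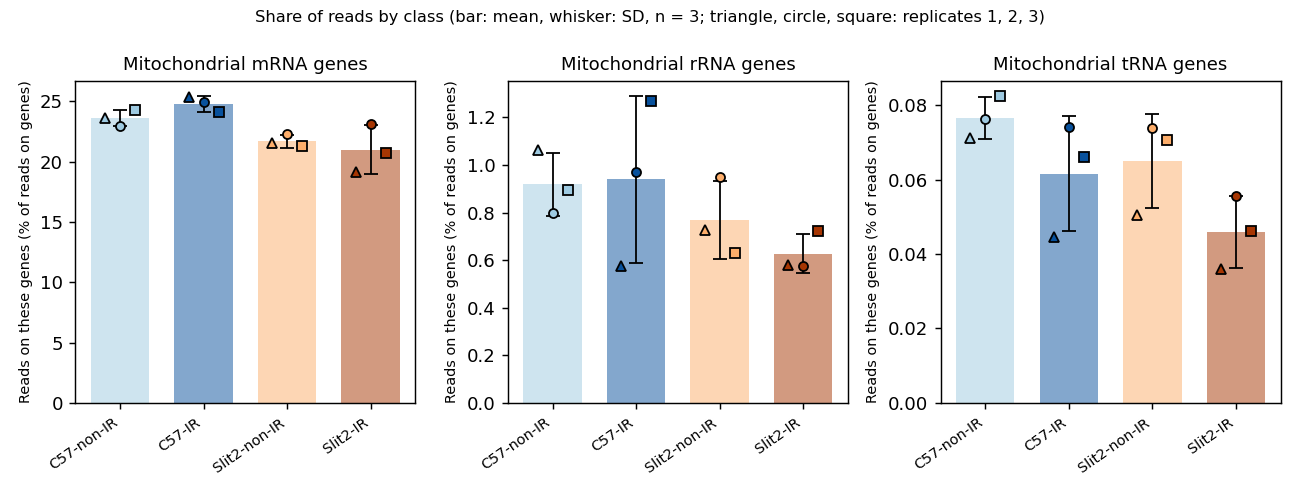
Reads on mitochondrial mRNA, rRNA and tRNA genes as a percent of all reads on genes (vertical axes, each from 0) in the 4 groups; bars are means, whiskers SD (n = 3) and symbols single libraries. The mRNA share lies between 19.1% and 25.3%, and the tRNA share has its lowest mean, 0.0460%, in Slit2-IR.

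Among mRNAs, FPKM averaged over the 12 libraries ran from 123 for mt-Atp8 (a small ATP synthase subunit) to 60799 for mt-Co1 (the catalytic subunit of cytochrome c oxidase). mt-Cytb (cytochrome b of complex III) followed at 32843, mt-Nd1 at 28930, mt-Nd2 at 19116 and mt-Nd4 at 13853. mt-Nd5 had 10322 and mt-Nd6, the one mRNA gene of the - strand, 9375. The Nd genes encode subunits of complex I (NADH dehydrogenase).

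A second set of mRNA genes stood lower: mt-Co2 at 2771 FPKM, mt-Co3 at 2201, mt-Atp6 at 2159, mt-Nd4l at 1087 and mt-Nd3 at 588. These 5 genes share a further property. Each has an annotated nuclear copy on chromosome 1 that is at least 99% identical over at least 90% of the gene, and no other mRNA gene has one. Over the aligned bases mt-Co2 and Gm28661 matched at 681 of 681, mt-Co3 and Gm28437 at 783 of 783, mt-Atp6 and Gm10925 at 678 of 678, mt-Nd4l and Gm10222 at 294 of 294, and mt-Nd3 and Gm28438 at 344 of 345. The other mRNA genes, mt-Atp8 aside, averaged 9375 to 60799 FPKM. The copies were listed with reads of their own: Gm28661 had 416 to 1371 FPKM, Gm28437 had 293 to 909 and Gm28438 had 73.1 to 170. How reads that match both places were assigned is not given in the sources used here, so the levels and changes of these 5 genes are uncertain. mt-Atp8 lies between mt-Co2 and mt-Atp6. Their copies end at base 24614651 (Gm10925) and start at base 24614885 (Gm28661) of chromosome 1. The stretch between annotated copies was not searched, so the level of mt-Atp8 may share this uncertainty. mt-Co1 (482 of 483 bases, with Gm29216) and mt-Nd4 (876 of 876 bases, with Gm28439) have such a match over part of their length only.

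The files also annotate shared bases between members. mt-Atp8 and mt-Atp6 share 43 bases and mt-Nd4l and mt-Nd4 share 7, on the same strand. mt-Nd5 and mt-Nd6 share 14 bases on opposite strands. The use of strand in counting is not stated, so reads of mt-Nd6 and of RNA antisense to it cannot be told apart. The same limit holds for the tRNA genes of both strands.

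The tRNA genes spanned a wide range. mt-Tp averaged 2391 FPKM, mt-Tc (cysteine) 2038 and mt-Tn 1670, all on the - strand. The 8 tRNA genes of the - strand had a median of 648 FPKM, and the 14 of the + strand a median of 44.8. With strand use unstated, these levels may include reads of antisense RNA, so they are no measure of transcription by strand. mt-Te (glutamate) averaged 686, mt-Ty 610 and mt-Tl1 (the other leucine tRNA, next to the rRNA genes) 549.

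At the low end, 6 tRNA genes did not reach the filter of about 10 reads in at least 3 libraries and were not tested. mt-Tf (phenylalanine), the first gene after the control region, had 0 reads in all 12 libraries, which allows a share of up to 1.20e-06% of the reads (counting error only). mt-Td had at most 1 read in a library, mt-Ts1 at most 2, mt-Tv at most 4, mt-Tt at most 5 and mt-Tk at most 7. mt-Ts1 and mt-Td lie between mt-Co1 and mt-Co2, and mt-Tk between mt-Co2 and mt-Atp8. The copies of mt-Co1, mt-Co2 and mt-Atp6 follow each other on chromosome 1, and the stretches between them were not searched. The low counts of mt-Ts1, mt-Td and mt-Tk may therefore share the uncertainty of those genes. The remaining 16 tRNA genes, all 13 mRNA genes and both rRNA genes make the 31 tested members, so counts below do not cover the 6.

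**Figure D2:**
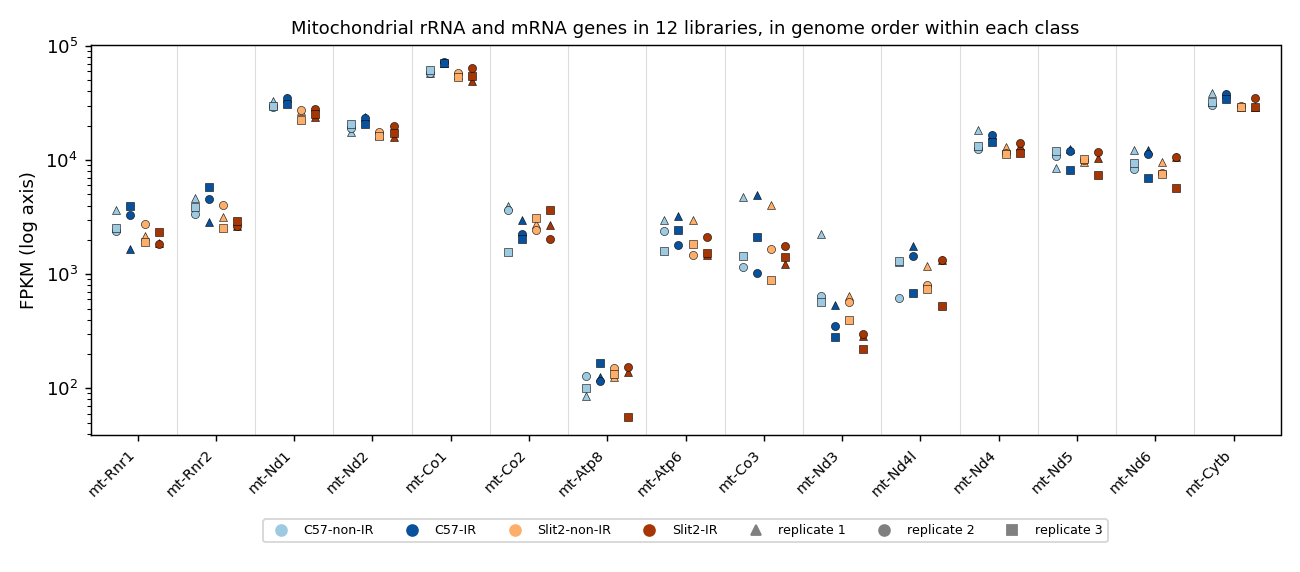
FPKM (vertical log axis) of the 2 rRNA and 13 mRNA genes in genome order within each class, one symbol per library, with colour for group and shape for replicate number. mt-Co1 is highest, at 49607 to 72016, and mt-Atp8 lowest, at 55.6 to 166; mt-Nd3 of C57-non-IR replicate 1 stands above the other libraries at 2241.

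Before the groups are compared, one feature of the libraries has to be described. In several members the libraries numbered 1 stood apart from those numbered 2 and 3, in every group. mt-Tp had 584, 577, 581 and 429 FPKM in the libraries numbered 1 (non-IR then IR of C57BL/6J, non-IR then IR of Slit2-Tg), and 2802 to 4064 in the other 8. mt-Tl2 had 150, 91.2, 63.8 and 12.5 FPKM in the libraries numbered 1 and 277 to 762 in the other 8. Both tRNA genes therefore had levels several times lower in the first library of each group, whichever treatment it had.

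The opposite held for mt-Te, with 696 to 1797 FPKM in the libraries numbered 1 against 231 to 646 in the other 8, and for mt-Tw (tryptophan), with 405 to 599 against 104 to 339. mt-Ts2 (a serine tRNA) and mt-Tq (glutamine) were lowest in the library numbered 1 of all 4 groups, and mt-Tm (methionine), mt-Tr (arginine) and mt-Th were highest there. Among mRNAs, mt-Co3 had 4720, 4938 and 4029 FPKM in the libraries numbered 1 of C57-non-IR, C57-IR and Slit2-non-IR, and at most 2136 elsewhere, Slit2-IR replicate 1 included. Of all 15240 tested genes, 2.30% had the 4 libraries numbered 1 below the other 8 and 2.87% had them above, and 2 members fell in each set (mt-Tp and mt-Tl2 below, mt-Te and mt-Tw above). The same libraries had a summed level of 10 ventricular cardiomyocyte markers of 21644 to 24325 FPKM, against 16892 to 19974 in the other 8. Not every marker of that list was higher: Atp2a2 had 1567 FPKM in C57-non-IR replicate 1, the lowest of the 12 libraries. Summed macrophage markers went the other way, at 105 to 155 FPKM in the libraries numbered 1 and 171 to 238 in the other 8. The labels give no batch, date or litter for the numbers. The methods of the study state different read lengths without assigning them to libraries. What sets the libraries numbered 1 apart was not tested. A fit with only the libraries numbered 2 and 3, chosen after seeing this, is given beside each main result.

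One further library differs in tissue markers. Slit2-IR replicate 1 had a summed level of 8 atrial cardiomyocyte markers of 1789 FPKM, against 38.1 to 257 in the other 11 libraries. Defining genes of heart muscle were high throughout, with Myh6 at 2366 to 4087 FPKM and Actc1 at 3940 to 7898. Summed markers of blood reached at most 49.0 FPKM, of lung epithelium 12.2 and of skeletal muscle 2.42. In bulk tissue, fewer cells of a type and less RNA per cell cannot be told apart.

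**Figure D3:**
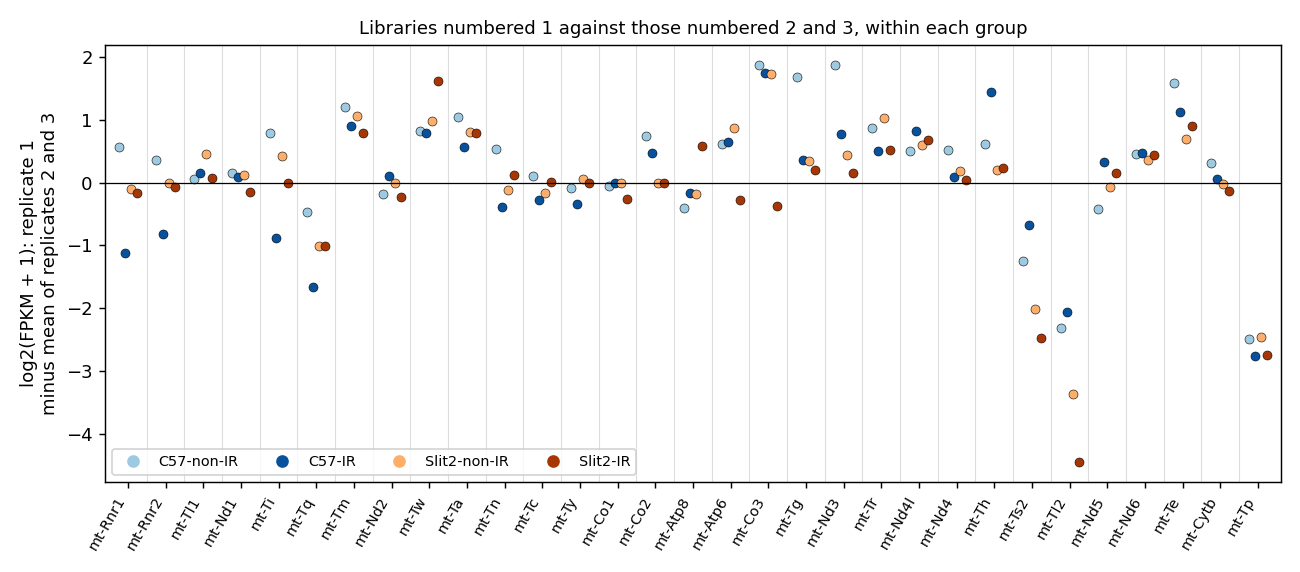
Difference on the log2(FPKM + 1) scale between the library numbered 1 and the mean of those numbered 2 and 3, for each tested member in genome order and each group (colours). mt-Tp (median difference -2.61) and mt-Tl2 (-2.84) lie far below 0 in all 4 groups, mt-Te (1.01) and mt-Tw (0.90) above 0.

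IR went with lower FPKM of several tRNA genes. Over both genotypes, 4 of the 16 tested tRNA genes passed the test (limma's moderated test on log2(FPKM + 1), Benjamini-Hochberg adjusted p under 0.05 over all 15240 genes), all lower after IR: mt-Th, mt-Ty, mt-Tg and mt-Tn. Of all tested genes, 1.15% passed as lower in this comparison. An unadjusted p under 0.05 as lower was found for 9 of the 16 and for 7.97% of all genes. With limma-voom on recovered reads 3 of the 4 passed, mt-Tg not among them (adjusted p = 0.063). None of the 16 passed as higher, where the share over all genes was 2.34%. The log2 fold change lay below 0 for 15 of the 16 tRNA genes, with a median of -0.51, and for 48.7% of all genes, whose median was 0.00. The exception was mt-Tl1 at 0.07 (SE 0.11).

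mt-Th changed most among those that passed. It had 85.9, 52.6 and 59.5 FPKM in C57-non-IR, 71.0, 21.9 and 29.9 in C57-IR, 66.2, 56.9 and 58.4 in Slit2-non-IR and 19.1, 14.3 and 18.1 in Slit2-IR. The 3 Slit2-IR libraries lay below all 9 others, while C57-IR replicate 1 lay among the non-IR libraries. All 6 IR libraries were lower than the non-IR library of the same genotype and number, though in C57BL/6J hearts the numbers do not pair the libraries. The log2 fold change over both genotypes was -1.29 (SE 0.24, adjusted p = 0.013), or 0.408 times the non-IR level. These values rest on 23 to 99 reads per library.

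mt-Th kept the call without any single library (adjusted p = 0.00024 to 0.038) and with only the libraries numbered 2 and 3 (log2 fold change -1.44, adjusted p = 0.0037). Without Slit2-IR replicate 1, the library high in atrial markers, it was -1.33 (adjusted p = 0.030).

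mt-Ty had 709, 738 and 761 FPKM in C57-non-IR and 535, 702 and 655 in C57-IR. It had 685, 675 and 639 in Slit2-non-IR and 403, 472 and 348 in Slit2-IR. Within each genotype the IR and non-IR libraries did not overlap, and the gap was wider in Slit2-Tg hearts. Over both genotypes mt-Ty fell by 0.47 on the log2 scale (SE 0.09, adjusted p = 0.020). The adjusted p for mt-Ty lay above 0.05 when 1 of 4 non-IR libraries was left out: number 2 (0.054) or 3 (0.057) of C57-non-IR, or number 1 (0.051) or 2 (0.055) of Slit2-non-IR. With only the libraries numbered 2 and 3, mt-Ty had a log2 fold change of -0.42 (adjusted p = 0.089).

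mt-Tg was a low gene, with 54.4, 16.4 and 16.1 FPKM in C57-non-IR, 16.9, 14.9 and 11.1 in C57-IR, 31.2, 24.9 and 23.8 in Slit2-non-IR and 8.69, 10.4 and 5.28 in Slit2-IR. C57-non-IR replicate 1 was far above the rest, and the Slit2 groups did not overlap. The log2 fold change over both genotypes was -1.19 (SE 0.28, adjusted p = 0.043) on 8 to 63 reads per library. The call was lost in 8 of the 12 fits that leave out a library, those without C57-IR replicate 2 or 3 or any of the 6 Slit2-Tg libraries (adjusted p up to 0.093), and with only the libraries numbered 2 and 3 (log2 fold change -0.95, adjusted p = 0.050). mt-Tg lies between mt-Co3 and mt-Nd3, whose chromosome 1 copies are 69 bases apart where the mitochondrial genes are 68 apart, so its reads share the uncertainty of those genes.

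mt-Tn had 2817, 1902 and 1994 FPKM in C57-non-IR, 1286, 1958 and 1439 in C57-IR, 1644, 1886 and 1705 in Slit2-non-IR and 1191, 1246 and 971 in Slit2-IR. The Slit2 groups did not overlap and the C57BL/6J groups did. Its log2 fold change over both genotypes was -0.57 (SE 0.14, adjusted p = 0.048). This call depended on nearly every library: it held only in the fit without C57-IR replicate 2 and was lost in the other 11 (adjusted p up to 0.11), as it was with only the libraries numbered 2 and 3 (log2 fold change -0.46, adjusted p = 0.13). mt-Tn and mt-Ty belong to the run of tRNA genes between mt-Nd2 and mt-Co1, a stretch of 376 bases. The copies Gm13339 and Gm13340 on chromosome 2, 96.7% and 97.6% identical to mt-Nd2 and mt-Co1 over the aligned bases, are also 376 bases apart. These copies averaged 25.2 and 92.7 FPKM, against 19116 for mt-Nd2 and 60799 for mt-Co1. Whether reads of the tRNA genes were assigned to the stretch between the copies was not tested. Both tRNA genes lie on the - strand, so their reads may include + strand RNA antisense to them.

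Since tRNA genes lie between the other genes, the values are also given by position, for which no test was made. The 4 genes that passed are not adjacent to each other. mt-Th, mt-Ts2 and mt-Tl2 stand in line between mt-Nd4 and mt-Nd5, with 0 bases between mt-Th and mt-Ts2 and 1 base shared by mt-Ts2 and mt-Tl2. Their log2 fold changes over both genotypes were -1.29, -1.22 (SE 0.52, adjusted p = 0.27) and -1.21 (SE 0.91, adjusted p = 0.60), while the flanking mRNA genes were at 0.12 for mt-Nd4 and 0.00 for mt-Nd5.

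mt-Ts2 and mt-Tl2 both had their lowest value of each group in the library numbered 1, apart from the other 8 libraries for mt-Tl2 and overlapping them for mt-Ts2. With only the libraries numbered 2 and 3, mt-Tl2 had 729 and 762 FPKM in C57-non-IR, 423 and 346 in C57-IR, 703 and 630 in Slit2-non-IR and 277 and 312 in Slit2-IR. Those 4 IR libraries lay below the 4 non-IR ones, with a log2 fold change of -1.07 (adjusted p = 0.0037). The share of all genes with that separation was not taken. mt-Ts2 in the same libraries had a log2 fold change of -1.24 (adjusted p = 0.036). In that fit 3 tRNA genes passed as lower (mt-Th, mt-Tl2 and mt-Ts2), where 0.505% of all genes did. It was chosen after the split by number had been seen in these genes, among others. Leaving out the libraries numbered 1 removes part of the spread of mt-Tl2 and mt-Ts2, so their p-values there are no independent support.

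A second such run holds mt-Tg, mt-Nd3 and mt-Tr, with log2 fold changes of -1.19, -1.15 and -0.52, between mt-Co3 (-0.08) and mt-Nd4l (0.19). The chromosome 1 copies of mt-Nd3 and mt-Nd4l are neighbours too, so reads of mt-Tr may share the uncertainty given for mt-Tg. A further run is mt-Tw, mt-Ta (alanine), mt-Tn, mt-Tc and mt-Ty, at -0.50, -0.93, -0.57, -0.35 and -0.47, between mt-Nd2 (0.16) and mt-Co1 (0.13). Outside these runs, mt-Tl1 was at 0.07, mt-Ti at -0.16, mt-Tq at -0.32, mt-Te at -0.27 and mt-Tp at -0.04. mt-Tm, which precedes mt-Nd2, was at -0.98 (SE 0.35, adjusted p = 0.17). Of these, only mt-Tg, mt-Tn and mt-Ty passed the test in the fit of all 12 libraries.

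**Figure D4:**
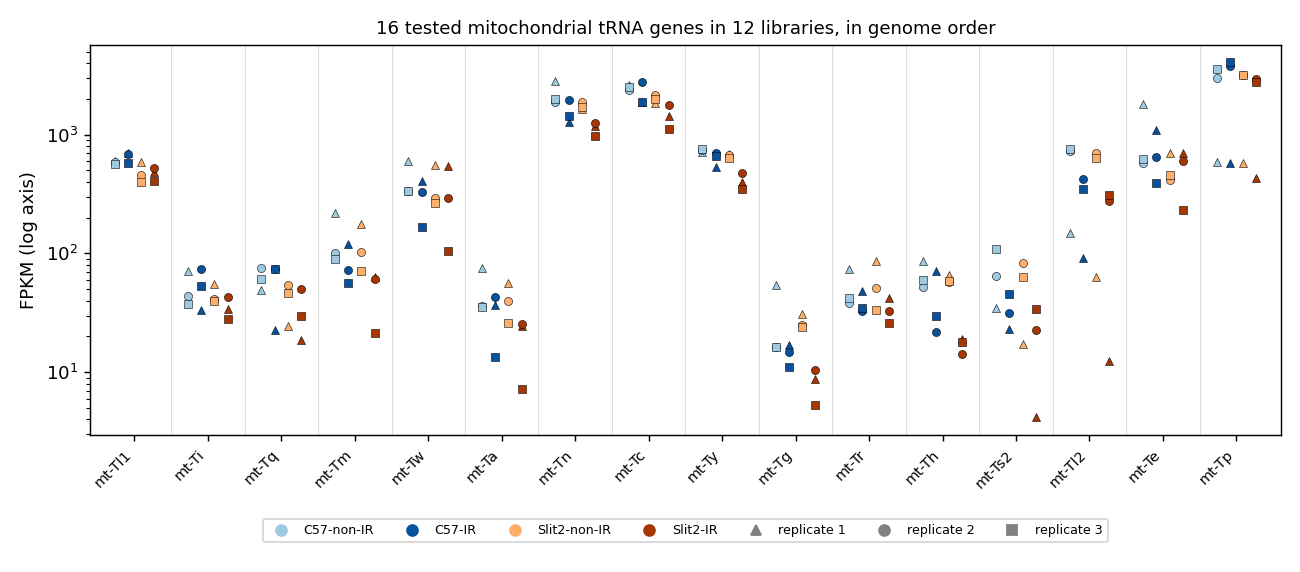
FPKM (vertical log axis) of the 16 tested tRNA genes in genome order, one symbol per library, with colour for group and shape for replicate number. For mt-Th the 3 Slit2-IR libraries (14.3 to 19.1) lie below all others, and for mt-Tp the 4 triangles, the libraries numbered 1, lie at 429 to 584 under the other 8.

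Within each genotype the same comparison has fewer libraries. In Slit2-Tg hearts, 1 of 16 tRNA genes passed as lower (0.0787% of all genes): mt-Ty, with a log2 fold change of -0.72 (SE 0.13, adjusted p = 0.048). mt-Th was at -1.77 (SE 0.34, adjusted p = 0.051), mt-Tg at -1.63 (adjusted p = 0.10) and mt-Tm at -1.30 (adjusted p = 0.33). An unadjusted p under 0.05 as lower was found for 6 of the 16 and for 5.07% of all genes. All 16 had a log2 fold change below 0, as 48.4% of all genes did, with a median of -0.65. For 7 of them the Slit2-IR libraries lay entirely below the Slit2-non-IR ones, which held for 8.3% of all genes.

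The replicate numbers of these 2 groups met the rule for pairing. With the number as a block, 4 tRNA genes passed as lower (0.256% of all genes): mt-Th (adjusted p = 0.014), mt-Tm (0.024), mt-Ty (0.028) and mt-Tg (0.039). With only the libraries numbered 2 and 3 in that comparison, mt-Th (log2 fold change -1.78, adjusted p = 0.021) and mt-Tl2 (-1.18, adjusted p = 0.032) passed (0.0197% of all genes as lower) and mt-Ty did not (-0.70, adjusted p = 0.16). For mt-Tl2 the limit given above for that choice of libraries holds here too. Without Slit2-IR replicate 1, mt-Ty stood at -0.72 (adjusted p = 0.16) and no tRNA gene passed. The call of mt-Ty was kept only without C57-IR replicate 1 or C57-IR replicate 2, and was lost in the other 10 such fits.

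In C57BL/6J hearts, 0 of 16 tRNA genes passed (limma, and 0 with limma-voom on recovered reads), and 2 had an unadjusted p under 0.05 as lower, mt-Tn (0.022) and mt-Th (0.034). The share of all genes with an unadjusted p under 0.05 as lower was 4.42%. In either direction 0.459% of all genes passed, and 0.0525% passed as lower. The log2 fold change lay below 0 for 13 of 16, against 49.5% of all genes, with a median of -0.46. mt-Ty was the one tRNA gene whose groups did not overlap, as 7.01% of all genes had C57-IR entirely lower. mt-Th was at -0.82 (SE 0.34, adjusted p = 0.48) and, without C57-IR replicate 1, at -1.30 (adjusted p = 0.015). With only the libraries numbered 2 and 3, mt-Tl2 (-0.96, adjusted p = 0.025) and mt-Th (-1.10, adjusted p = 0.037) passed, where 0.0787% of all genes did as lower. The same limit holds for mt-Tl2 in this choice of libraries.

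No mRNA or rRNA gene passed the test for IR. Over both genotypes, 0 of 13 mRNA genes and 0 of 2 rRNA genes passed (limma, and 0 with limma-voom), against 3.49% of all genes in either direction, and 1 had an unadjusted p under 0.05, mt-Nd3. The median log2 fold change was 0.04 for the mRNA genes, of which 9 were above 0 and 4 below. With libraries scaled to all reads that median was -0.06, with 8 of 13 below 0, beside a median of -0.06 for all genes. The mRNA genes thus have no direction that holds under each scaling, and their median moved with that of all genes.

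mt-Co1 had 58184, 58656 and 62333 FPKM in C57-non-IR, 71077, 72016 and 71212 in C57-IR, 55314, 58191 and 53641 in Slit2-non-IR and 49607, 64248 and 55106 in Slit2-IR. In C57BL/6J hearts the IR libraries were all above the non-IR ones (log2 fold change 0.26, SE 0.21, adjusted p = 0.87), and in Slit2-Tg hearts they overlapped (0.01, SE 0.21, adjusted p = 1.0). mt-Nd2 also separated in C57BL/6J hearts, at 17589 to 20795 FPKM without and 20934 to 23885 with IR (0.25, SE 0.17, adjusted p = 0.81). Groups without overlap, higher after IR, occurred for 6.75% of all genes in that comparison.

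mt-Nd3 was the exception among mRNA genes. It had 2241, 649 and 571 FPKM in C57-non-IR, 540, 354 and 283 in C57-IR, 644, 568 and 400 in Slit2-non-IR and 286, 301 and 219 in Slit2-IR. Every IR library lay below every non-IR library of its genotype. The log2 fold change over both genotypes was -1.15 (SE 0.32, adjusted p = 0.078). C57-non-IR replicate 1 was far above the rest. Without that library it was -0.83 (adjusted p = 0.049), and with only the libraries numbered 2 and 3 it was -0.92 (adjusted p = 0.033). Its chromosome 1 copy Gm28438 was at -0.39 (SE 0.16, adjusted p = 0.26).

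The rRNA genes varied widely within groups. mt-Rnr1, the rRNA of the small ribosomal subunit, had 3674, 2408 and 2552 FPKM in C57-non-IR, 1675, 3332 and 3956 in C57-IR, 2144, 2744 and 1920 in Slit2-non-IR and 1861, 1842 and 2365 in Slit2-IR. mt-Rnr2, that of the large subunit, had 4624, 3363 and 3880, then 2896, 4569 and 5775, then 3168, 4027 and 2534, and 2650, 2650 and 2925 in the same order. The C57-IR libraries spanned both extremes of the C57BL/6J values. The log2 fold changes after IR over both genotypes were -0.09 (SE 0.21) for mt-Rnr1 and -0.05 (SE 0.18) for mt-Rnr2, with adjusted p of 0.91 and 0.94.

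The 2 rRNAs come from one precursor, and their ratio within a library does not depend on the scaling between libraries. The log2 ratio of mt-Rnr2 to mt-Rnr1 averaged 0.47 ± 0.14 (SD, n = 3) in C57-non-IR, 0.60 ± 0.17 in C57-IR, 0.51 ± 0.09 in Slit2-non-IR and 0.45 ± 0.12 in Slit2-IR. mt-Nd6 and mt-Nd5 overlap on opposite strands, and their log2 ratio averaged -0.08 ± 0.51, -0.11 ± 0.11, -0.27 ± 0.25 and -0.16 ± 0.20 in the same order. Across both ratios and the 4 pairwise comparisons, two-sided exact permutation tests gave p = 0.40 to 1.0, and the 8 adjusted values were 0.80 or 1.0. With 3 libraries against 3, the smallest p such a test allows is 0.10.

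**Figure D5:**
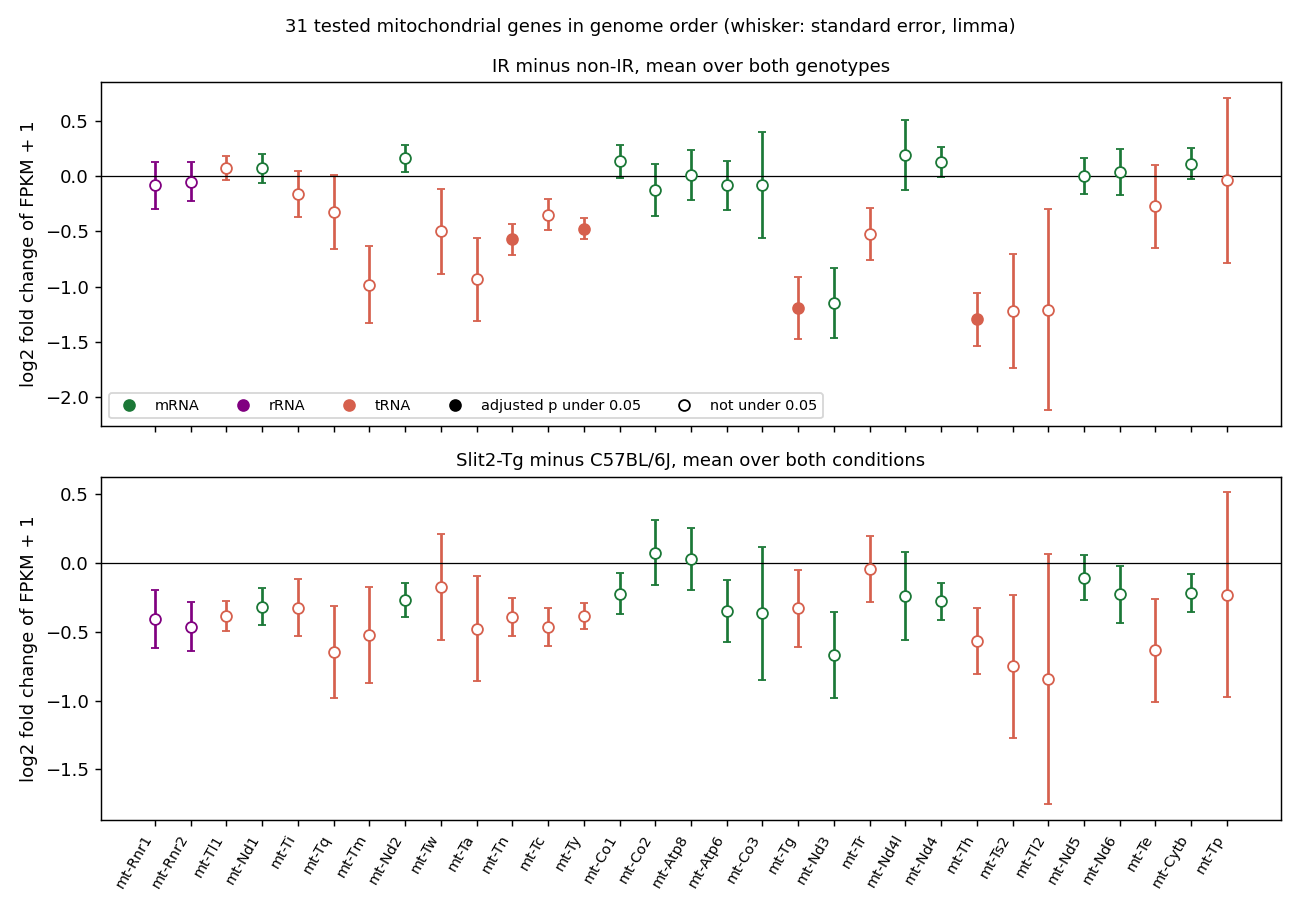
Log2 fold changes of the 31 tested members in genome order with standard errors (limma, all 12 libraries), for IR (upper panel) and for Slit2-Tg (lower panel); filled symbols passed the test. In the upper panel mt-Th, mt-Tg, mt-Tn and mt-Ty are filled, and mRNA genes other than mt-Nd3 lie between -0.13 and 0.19; in the lower panel 29 of 31 members lie below 0 and none is filled.

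Slit2-Tg hearts had lower values of most members, but no member passed the test. Over both conditions, 0 of 31 passed (limma, and 0 with limma-voom; 0.131% of all genes passed), and 8 had an unadjusted p under 0.05 as lower, where 2.13% of all genes did. The log2 fold change lay below 0 for 29 of 31 members, against 50.7% of all genes, with medians of -0.25 for mRNA, -0.44 for rRNA and -0.43 for tRNA genes. The 2 above 0 were mt-Co2 (0.07, SE 0.24) and mt-Atp8 (0.03, SE 0.23). The members share libraries and precursor RNAs, so their number is not a number of separate observations.

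mt-Nd1 was the one member whose 6 Slit2-Tg libraries all lay below the 6 C57BL/6J libraries, as 0.177% of all genes did. It had 32894, 28956 and 30096 FPKM in C57-non-IR, 35005, 34741 and 30973 in C57-IR, 26957, 27313 and 22713 in Slit2-non-IR and 24044, 28194 and 25274 in Slit2-IR. The nearest pair of values was 28956 and 28194, and the log2 fold change was -0.32 (SE 0.13, unadjusted p = 0.034, adjusted p = 1.0).

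The smallest unadjusted p among the members in this comparison belonged to 3 tRNA genes. mt-Ty was at -0.39 (SE 0.09, unadjusted p = 0.0018, adjusted p = 0.39), mt-Tl1 at -0.39 (SE 0.11, unadjusted p = 0.0043, adjusted p = 0.59) and mt-Tc at -0.46 (SE 0.14, unadjusted p = 0.0062, adjusted p = 0.71). In each of these, all 6 Slit2-Tg libraries were lower than the C57BL/6J library of the same condition and number. The rRNA gene mt-Rnr2 was at -0.47 (SE 0.18, unadjusted p = 0.024, adjusted p = 1.0), lower in 5 of 6. In non-IR hearts these matches are by label only, since the numbers do not pair those libraries. No share of all genes was taken for them. With only the libraries numbered 2 and 3, the median was -0.21 for mRNA, -0.49 for rRNA and -0.39 for tRNA genes, and 0 of 31 passed.

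By condition, the non-IR hearts of the 2 genotypes differed less than the IR hearts in the medians, and this difference was not itself tested for the lists. Slit2-non-IR against C57-non-IR had median log2 fold changes of -0.18 for mRNA and -0.23 for tRNA genes, with 0 members passing (0.0394% of all genes passed) and 0 with an unadjusted p under 0.05, where 1.77% of all genes had one as lower. There 28 of 31 members lay below 0, against 51.1% of all genes, and 5 had groups without overlap, all lower (4.57% of all genes). Slit2-IR against C57-IR had -0.34 and -0.62, with 0 passing (0.0459% of all genes passed) and 6 members with an unadjusted p under 0.05 as lower (1.38% of all genes). There 30 of 31 members lay below 0, against 50.1% of all genes. Of these 6, mt-Ty was at -0.63 (SE 0.13, adjusted p = 0.38) and mt-Tc at -0.60 (SE 0.20, adjusted p = 1.0). Groups did not overlap for 10 of 31 members in the IR hearts, all lower in Slit2-IR, as 3.44% of all genes were. These 10 include mt-Co1, mt-Nd1, mt-Nd2 and mt-Nd4 and 6 tRNA genes. Without Slit2-IR replicate 1, the medians in IR hearts were -0.33 for mRNA and -0.57 for tRNA genes. The 4 pairwise comparisons share their groups, so these values are not independent of those for IR.

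The interaction asks whether the IR difference itself differed between genotypes. Of 31 members, 0 passed with limma and 0 with limma-voom, as did 0% of all genes. mt-Ty was the one member below the unadjusted threshold, as 0.787% of all genes were in its direction. Its interaction was -0.49 (SE 0.19, unadjusted p = 0.026, adjusted p = 1.0). mt-Th was at -0.95 (SE 0.48, 95% interval -2.0 to 0.11, adjusted p = 1.0). The wider IR gap of both genes in Slit2-Tg hearts is therefore not shown to differ from that in C57BL/6J hearts.

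Nuclear genes that serve the mitochondrial genome were tested in the same fits. The list of 62 symbols covers its DNA copying, transcription, RNA processing and RNA modification, with some regulators and proteases. It holds no enzyme of tRNA charging and no translation factor. Of the 62, 56 were found and tested. Among these, 1 passed for IR over both genotypes, where 3.49% of all genes did and 2.34% as higher. That gene was Pde12, a matrix enzyme that shortens the poly(A) tails of mitochondrial RNA, at 1.63 ± 0.244 FPKM (SD, n = 3) in C57-non-IR, 3.63 ± 1.15 in C57-IR, 1.51 ± 0.153 in Slit2-non-IR and 3.21 ± 0.929 in Slit2-IR (log2 fold change 0.76, SE 0.13, adjusted p = 0.011). Polrmt, the RNA polymerase of the organelle, was at -0.06 (SE 0.13), Tfam, which packs its DNA and starts transcription, at -0.05 (SE 0.08), Lrpprc, which stabilises its mRNAs, at 0.05 (SE 0.08) and its partner Slirp at 0.11 (SE 0.09). The adjusted p of these 4 genes was 0.65 to 0.90.

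Ppargc1a, a coactivator of mitochondrial biogenesis, had 12 ± 3.14 FPKM in C57-non-IR, 14.3 ± 1.53 in C57-IR, 12.8 ± 2.90 in Slit2-non-IR and 8.59 ± 0.667 in Slit2-IR. It was lowest in Slit2-IR hearts, at -0.67 against C57-IR (SE 0.19, unadjusted p = 0.0042, adjusted p = 1.0), and did not pass in any comparison.

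Nuclear genes also encode the remaining subunits of the same complexes. Of 96 tested nuclear genes of the respiratory chain and ATP synthase, 0 passed in any of the 7 contrasts. Their median log2 fold change was 0.00 for IR over both genotypes (48 of 96 below 0) and -0.12 for Slit2-Tg over both conditions (89 of 96 below 0, against 50.7% of all genes, and 5 with an unadjusted p under 0.05 as lower, against 2.13%). Of 77 tested genes for mitochondrial ribosomal proteins, 0 passed in any contrast, with medians of 0.00 for IR and -0.07 for Slit2-Tg (70 of 77 below 0, beside the same 50.7% of all genes). Of 9 tested nuclear copies of mitochondrial genes, 0 passed in any contrast, and their median was -0.09 for IR and -0.18 for Slit2-Tg.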

How the data were processed

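RNA sequencing tables of 12 mouse heart libraries were used. Libraries were made from total RNA with an NEBNext Ultra RNA kit. The authors deposited FPKM per gene and library, and the submitters' processing notes name HISAT2 and mm10, while counting, strand, annotation release and RNA selection are not given in the sources used here. FPKM multiplied by gene length gave whole reads (tolerance 0.01) in 100% of values, so depth was recovered. Values had been scaled together before deposit by size factors. There were 0 per-library columns left unused. Genes were tested if 3 or more libraries reached the FPKM that 10 reads give in the library of median depth, with 15 reads over all libraries. limma 3.58.1 (R 4.3.3) fitted log2(FPKM + 1), pseudocount 1, with a variance trend, all 4 groups and no covariate, and Benjamini-Hochberg adjustment with a threshold of 0.05. Fold changes on this scale understate low genes. The procedure was tested on simulated data. Nuclear copies were sought with blastn 2.17.0 among GENCODE M21 transcripts (at least 95% identity and 50 bases). Levels of single libraries are stated in the order of replicates 1, 2 and 3. Every MT row was eligible to be named, and of other lists those passing a test plus Polrmt, Tfam, Lrpprc, Slirp and Ppargc1a. Members and lists were chosen with earlier results of these data known. Deviations from the group means correlated between libraries of the same number when Slit2-IR was set against Slit2-non-IR (correlations 0.291, 0.294 and 0.143) and against C57-IR (0.285, 0.154 and 0.362), each over 0.1, and the pairing rests on these correlations only. Summed marker lists of endothelial cells (161 to 260 FPKM), fibroblasts (110 to 222), macrophages (105 to 238) and adipocytes (90.6 to 222) were checked in each library. P-values measure the spread between these libraries.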

Additional observations from a re-analysis of the deposited data

How the results depend on the processing

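The signs of the 5 fold changes that passed held in every alternative, while 246 of 4667 alternative values of all members had another sign than the value reported, none of them of a result that passed. For IR over both genotypes the count of tRNA genes passing was 4, and became 3 with limma-voom, 3 with at least 10 reads in every library (mt-Tg falls under that filter), 3 with only the libraries numbered 2 and 3, 1 with every gene of at least 1 read, 8 with the replicate block and 1 to 3 without single libraries. The count of mRNA and rRNA genes passing there was 0, and became 1 (mt-Nd3) with the replicate block, with scaling to all reads, with scaling to reads outside the mitochondrial genome and with only the libraries numbered 2 and 3, and 0 to 1 without single libraries. For Slit2-IR against Slit2-non-IR the tRNA count was 1, and became 2 with pseudocount 0.1, with at least 10 reads in every library, with only the libraries compared, with either scaling to reads and with only the libraries numbered 2 and 3, 0 with every gene of at least 1 read, 4 with the replicate block and 0 to 2 without single libraries. For C57-IR against C57-non-IR it was 0, with 2 in the libraries numbered 2 and 3 and 0 to 1 without single libraries. The cause of these differences was not tested.

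In the 2 comparisons whose numbers do not pair the libraries (correlations 0.0833 to 0.295 for IR in C57BL/6J hearts, 0.0377 to 0.324 for Slit2-Tg in non-IR hearts), the block called 0 members, and it changed no call in Slit2-IR against C57-IR, Slit2-Tg over both conditions or the interaction. In 8 of 12 libraries the best match in the other groups had the same number. Over all genes, IR over both genotypes called 532 (356 higher, 176 lower), 773 with the block and 299 with every gene of at least 1 read, 290 higher and 341 lower scaled to all reads and 277 and 305 scaled to reads outside the mitochondrial genome. C57-IR against C57-non-IR called 70, and 7 to 175 in other settings (3 to 254 without single libraries), and Slit2-IR against Slit2-non-IR 80, and 19 to 202 (4 to 180). Slit2-non-IR against C57-non-IR called 6 (0 to 14), Slit2-IR against C57-IR 7 (3 to 12), Slit2-Tg over both conditions 20 (6 to 30) and the interaction 0 (0 to 4). Depth limits mt-Ta, mt-Tg, mt-Th, mt-Ti, mt-Tq, mt-Tr and mt-Ts2, which have at most 122 reads in a library.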
